A study of Homo sapiens with 6 samples.

Results

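RNA levels of 9 genes of the transforming growth factor beta (TGF-beta) pathway were examined in the mouse host. These were the ligands Tgfb1, Tgfb2 and Tgfb3, the receptors Tgfbr1 and Tgfbr2, and the intracellular signal carriers Smad2, Smad3, Smad4 and Smad7. They were taken by their Ensembl gene IDs, from a list drawn up with earlier results of these data known, and are 9 of the 77134 rows of a table of estimated counts. All 9 passed the filter on low counts, which left 12637 genes to test. The libraries came from 6 tumours of A549, a human lung adenocarcinoma line, grown under the skin of BALB/c nude mice from 5000000 transplanted cells each. In 3 tumours the cells carried the lentiviral vector pLV-CMV-EGFP-Neo (control) and in 3 they carried pLV-CMV-HIF1A-AS3-EGFP-Neo (overexpression). The vectors therefore share the EGFP and Neo cassettes and differ in HIF1A-AS3, a human RNA antisense to HIF1A, which the vector name places behind a CMV promoter. An effect of HIF1A-AS3 cannot be told apart here from other differences between the transduced cells of each group. The labels do not give the age of the mice, do not say whether each stable line was a clone, and do not tie tumours to mice. The p-values below therefore rest on the spread between tumours, whatever its source.

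TGF-beta ligands are secreted in a latent form held by their own propeptide and by matrix proteins, and must be released before they bind. The released ligand joins the type II receptor (Tgfbr2) to the type I receptor (Tgfbr1), whose kinase then phosphorylates Smad2 and Smad3. These assemble with Smad4 and act on transcription in the nucleus, where Smad7, an inhibitor of the type I receptor, is among the induced genes. In tumours the pathway is known for activating fibroblasts, shaping vessels and restraining macrophages and lymphocytes, and nude mice lack a thymus and so most T cells.

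All rows of the table carry mouse gene IDs, although the labels name human as the organism. The values describe RNA of the host, together with human reads that may have been assigned to a mouse gene; the share of such reads was not tested. Ligand release, SMAD phosphorylation and pathway activity were not measured, so the RNA levels below do not show whether signalling differed. TGF-beta made by the A549 cells themselves was not analysed here, and neither was HIF1A-AS3, so the overexpression could not be checked in these libraries. The table gives no gene names. Latent TGF-beta binding proteins, other receptors and SMADs, pathway targets and markers of host cell types, listed by symbol, could therefore not be looked up and were not analysed here. Libraries held 4167784 to 4769157 estimated counts. Overexpression replicate 1 stood apart in its scaling factor, 0.742 against 1.02 to 1.10 in the other 5 libraries, and its effective depth was the smallest.

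None of the 9 genes passed the test for a difference between overexpression and control tumours. With edgeR's quasi-likelihood test, 0 of 9 passed an adjusted p of 0.05, where 2 of 12637 genes (0.0158%) did, and 0 of 9 had an unadjusted p below 0.05, where 6.29% of all genes did. The unadjusted count over all genes, 795, was 327 without control replicate 1, 430 without control replicate 3 and 2659 without overexpression replicate 2 in edgeR, with 0 of 9 in each. DESeq2 also called 0 of 9, beside 0.222% of the same genes and 0.147% of all rows it tested. Limma-voom called 0 of 9, beside 0.0554% of the genes. With such low shares, a count of 0 among 9 genes is near the background. The 2 groups overlapped in CPM, counts scaled to a fixed library size, for all 9 genes, while they did not overlap in 13.2% of all genes tested. The log2 fold changes ran from -0.15 for Tgfb2 to 0.29 for Tgfbr1, with a median of -0.03 beside 0.01 over all genes, and 4 were positive and 5 negative. In bulk tumours, fewer cells of a type and less RNA per cell cannot be told apart. Levels in CPM are not divided by transcript length, so they are compared between tumours and not between genes.

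**Figure D1:**
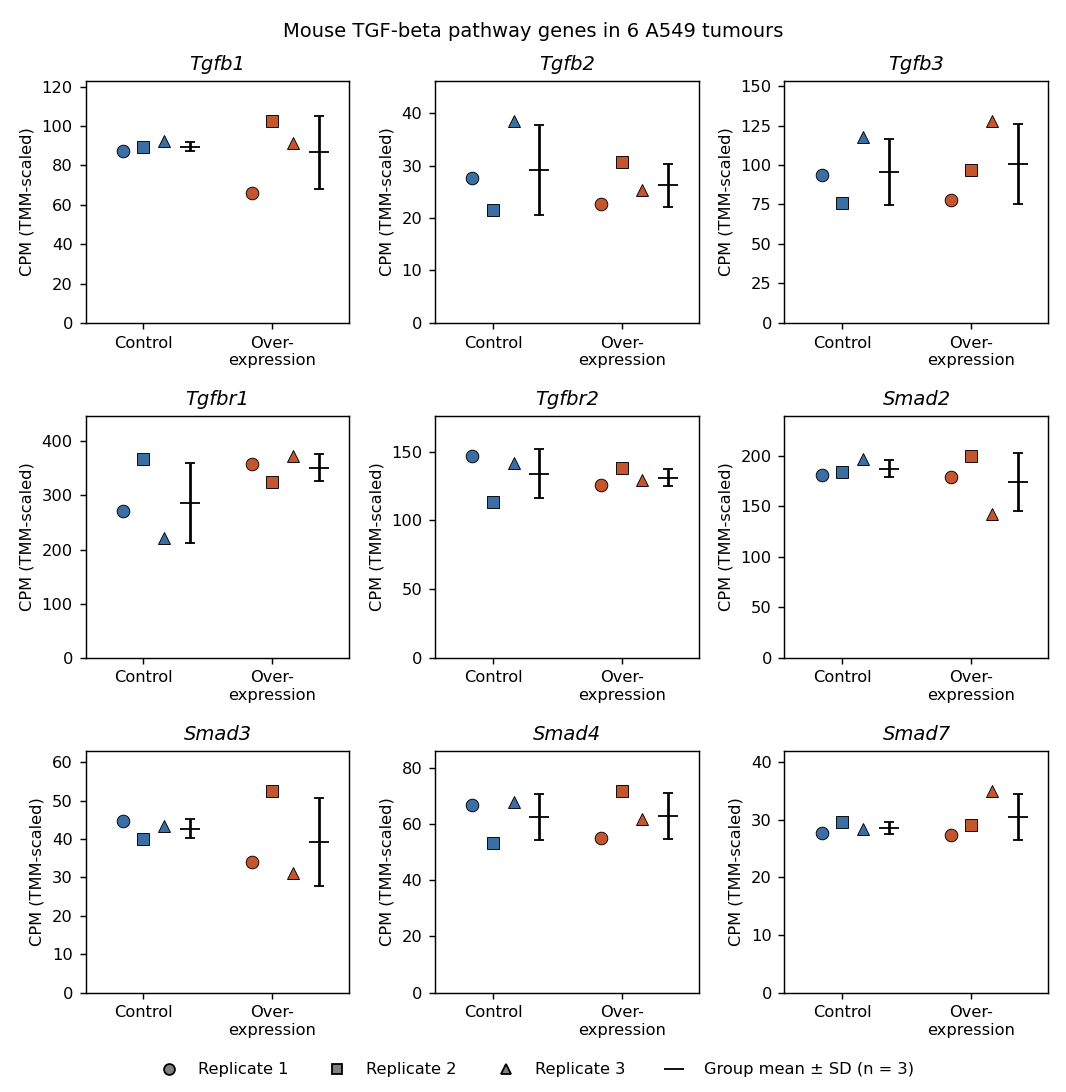
Level of each gene in each tumour, in CPM scaled by the trimmed mean of M values (TMM, vertical axes starting at 0), for control tumours (blue) and overexpression tumours (orange); symbols give the replicate number and black bars the group mean ± SD (n = 3). The groups overlap in all 9 panels, and the 3 controls are tightest relative to their mean for Tgfb1, from 87.4 to 92.2 CPM.

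Tgfb1, the ligand best known from macrophages, platelets and regulatory T cells (ENSMUSG00000002603.16), had 404, 395 and 429 estimated counts in controls 1, 2 and 3. Overexpression tumours 1, 2 and 3 had 232, 486 and 398. Scaled for depth, the controls lay at 87.4, 89.3 and 92.2 CPM and the overexpression tumours at 65.9, 102 and 91.5 CPM. The 3 controls were close together, and the overexpression group held both the lowest and the highest library. Controls averaged 89.6 ± 2.43 CPM, against 86.6 ± 18.8 CPM with overexpression (SD, n = 3 each). The log2 fold change was -0.05 ± 0.20 (standard error, SE), at adjusted p = 0.96 in edgeR. Without overexpression replicate 1 it was 0.08, at an adjusted p of 1.00 in edgeR.

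Tgfb2, a ligand with a strong role in development and matrix-producing cells (ENSMUSG00000039239.15), had 80 to 179 estimated counts per library. Controls 1, 2 and 3 measured 27.7, 21.5 and 38.5 CPM, and overexpression tumours 22.7, 30.8 and 25.3 CPM. Here the controls held both extremes, and all 3 overexpression tumours lay between them. Its log2 fold change of -0.15 (SE 0.25, adjusted p = 0.88 in edgeR) was the lowest of the 9 genes. Without control replicate 3, the highest library, it was 0.10, at an adjusted p of 1.00 in edgeR.

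Tgfb3, a ligand typical of mesenchymal cells (ENSMUSG00000021253.8), was at 93.4, 76.2 and 118 CPM in controls 1, 2 and 3 and at 77.5, 96.9 and 128 CPM in overexpression tumours. The 2 groups covered nearly the same range. The log2 fold change was 0.07 ± 0.24 (SE), at adjusted p = 0.95 in edgeR. It was -0.06 without control replicate 2 and -0.14 without overexpression replicate 3. The ratio of Tgfb3 to Tgfb1 counts, which does not depend on scaling between libraries, was 1.07, 0.852 and 1.28 in controls and 1.18, 0.946 and 1.39 in overexpression tumours. The ratio of Tgfb2 to Tgfb1 counts was 0.317, 0.240 and 0.418 in controls and 0.345, 0.301 and 0.277 in overexpression tumours, all within the span of the controls.

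Of the receptors, Tgfbr1, the type I kinase that passes the signal to Smad2 and Smad3 (ENSMUSG00000007613.16), had the largest fitted difference of the 9 genes. It had 1254, 1623 and 1031 estimated counts in controls 1, 2 and 3 and 1258, 1539 and 1619 in overexpression tumours. In CPM the controls measured 271, 367 and 222, and the overexpression tumours 357, 324 and 372. The overexpression tumours were close together near the top of the range, while controls 1 and 3 lay below all of them and control 2 lay among them. The means were 287 ± 74.0 CPM and 351 ± 24.6 CPM (SD, n = 3 each). The fold change was 1.23, with a 95% interval of 0.851 to 1.77, an SE of 0.23 on the log2 scale and adjusted p = 0.76 in edgeR. Among the fits that left out 1 library, the value moved most without control replicate 2, where the log2 fold change was 0.52, at unadjusted p = 0.068 and adjusted p = 0.82 in edgeR. Without control replicate 3 it was 0.14, at an adjusted p of 1.00 in edgeR.

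Tgfbr2, the type II receptor that binds the ligand first (ENSMUSG00000032440.14), varied 1.29-fold between its lowest and highest tumour. Controls 1, 2 and 3 measured 147, 113 and 142 CPM, and overexpression tumours 126, 138 and 129 CPM. All 3 overexpression tumours lay between the lowest and the highest control. The log2 fold change was -0.03 ± 0.17 (SE), at adjusted p = 0.97 in edgeR. It was 0.04 without control replicate 1 and 0.02 without control replicate 3. The ratio of Tgfbr1 to Tgfbr2 counts was 1.85, 3.24 and 1.56 in controls (mean 2.22 ± 0.896, SD, n = 3) and 2.84, 2.35 and 2.88 in overexpression tumours (mean 2.69 ± 0.298, SD, n = 3). Control 2 had the highest ratio of the 6 tumours, with the lowest Tgfbr2 and the second highest Tgfbr1. The 5 ratios between genes reported here were picked after the values were seen and are given without a test.

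**Figure D2:**
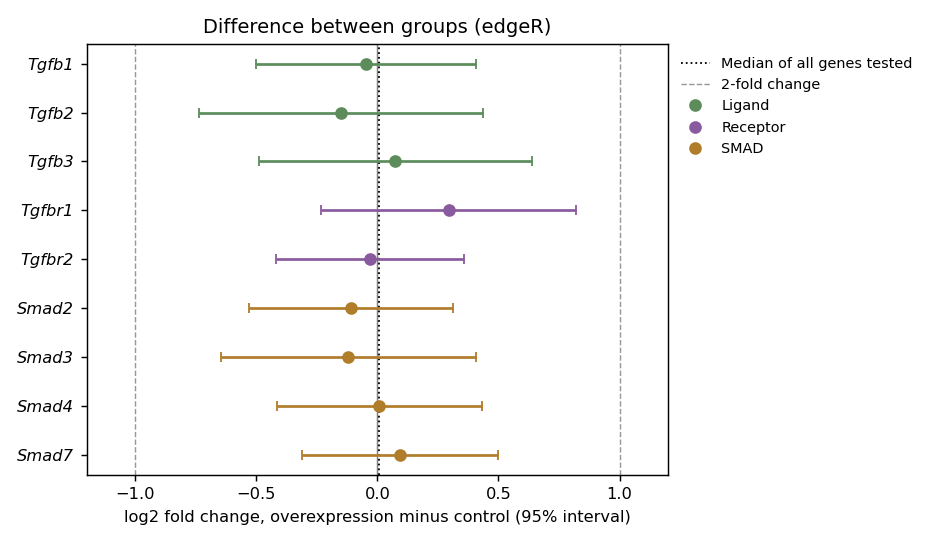
Log2 fold change of each gene (overexpression minus control, horizontal axis) from edgeR with its 95% interval, coloured by role; dashed lines mark a 2-fold change and the dotted line the median of all genes tested, 0.01. All 9 intervals include 0 and end inside the 2-fold lines, and Tgfbr1 is farthest from 0 at 0.29.

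Smad2 and Smad3, the SMADs phosphorylated by the type I receptor, shared the order of their highest and lowest tumours. Smad2 (ENSMUSG00000024563.17) measured 181, 184 and 197 CPM in controls 1, 2 and 3 and 179, 199 and 143 CPM in overexpression tumours. Smad3 (ENSMUSG00000032402.13) measured 44.8, 40.0 and 43.4 CPM in controls and 34.1, 52.5 and 31.3 CPM in overexpression tumours. For both genes overexpression 2 was the highest and overexpression 3 the lowest of the 6 libraries, with the 3 controls between them. The log2 fold changes were -0.11 for Smad2 (SE 0.18, adjusted p = 0.88) and -0.12 for Smad3 (SE 0.23, adjusted p = 0.90) in edgeR. Without overexpression replicate 3 they were 0.01 and 0.02. Without overexpression replicate 2 the value for Smad3 was -0.38, at unadjusted p = 0.052 and adjusted p = 0.25 in edgeR. That fit left out the library with the highest Smad3. It put 2659 genes at unadjusted p below 0.05 in edgeR, against 795 with all 6 libraries. The ratio of Smad2 to Smad3 counts was 4.03, 4.59 and 4.54 in controls and 5.25, 3.79 and 4.56 in overexpression tumours.

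Smad4, the partner that receptor-activated SMADs bind on the way to the nucleus (ENSMUSG00000024515.14), had the fold change nearest to 0. Controls 1, 2 and 3 measured 66.6, 53.2 and 67.7 CPM, and overexpression tumours 55.1, 71.7 and 61.6 CPM. Each group held values from both ends of the range. The means were 62.5 ± 8.09 CPM and 62.8 ± 8.34 CPM (SD, n = 3 each), which gave 0.01 ± 0.18 (SE) on the log2 scale, at adjusted p = 0.99 in edgeR. It was -0.09 without control replicate 2, and also without overexpression replicate 2.

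Smad7, the inhibitory SMAD that TGF-beta itself induces (ENSMUSG00000025880.13), had 128, 131 and 132 estimated counts in controls 1, 2 and 3 and 96, 138 and 152 in overexpression tumours. In CPM these were 27.7, 29.6 and 28.4 in controls and 27.3, 29.1 and 35.0 in overexpression tumours. Of the 6 tumours 5 lay between 27.3 and 29.6 CPM, and overexpression 3 stood above them. The log2 fold change was 0.09 ± 0.17 (SE), at adjusted p = 0.90 in edgeR, and it was -0.02 without overexpression replicate 3. The ratio of Smad7 to Smad3 counts was 0.618, 0.741 and 0.653 in controls and 0.800, 0.553 and 1.12 in overexpression tumours. Overexpression 3 had the highest Smad7 and the lowest Smad3, and overexpression 2 had the lowest ratio of the 6 tumours.

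The intervals set how large a difference these libraries leave room for. The 95% intervals of all 9 fold changes lay between a 2-fold lower and a 2-fold higher level, as did those of 55.4% of all genes tested. For 5 of the 9 (Tgfb1, Tgfbr2, Smad2, Smad4 and Smad7) the interval also lay within a 1.5-fold change in either direction, beside 16% of all genes. Tgfb2 had the lowest bound, a fold of 0.600, and Tgfbr1 the highest, 1.77. These intervals are per gene and not adjusted for the number of genes. The shares over all genes include genes with low counts. Refitted on genes averaging at least 5 CPM, they were higher, at 63.9% within 2-fold and 18.9% within 1.5-fold. The counts among the 9 genes were again 9 and 5 in that fit. Group means of the 9 genes lay well above that cut, from 26.3 CPM (Tgfb2, overexpression) to 351 CPM (Tgfbr1, overexpression). The shares over all genes were therefore not matched to the 9 genes in level. With library totals as the only scaling the intervals of Tgfb2 and Smad3 reached past a 2-fold lower level. The interval of Tgfbr1 reached past a 2-fold higher level without control replicate 2 and with a block by replicate number. The count within 1.5-fold was less stable: it was 0 of 9 with library totals only and 1 with the block, beside 5.27% and 1.92% of all genes. It was 1 without control replicate 1, 0 without control replicate 2, 1 without control replicate 3 and 3 without overexpression replicate 2, beside 2.42%, 4.58%, 3.51% and 10.4% of all genes.

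The genes differed in which group carried their spread. The SD of log2 CPM was larger among overexpression tumours for 5 of 9 genes, Tgfb1, Tgfb3, Smad2, Smad3 and Smad7, where it was larger for 76.4% of all genes tested. The coefficient of variation (SD over mean) of Tgfb1 was 2.71% in controls and 21.7% in overexpression tumours, and that of Smad3 was 5.69% and 29.3%. For Tgfbr1 the order was the opposite, 25.8% in controls and 7.0% in overexpression tumours, as it was for Tgfb2, at 29.4% and 15.6%. The count of 5 depends on the measure. Smad4, not among the 5 by SD of log2 CPM, had a coefficient of variation of 12.95% in controls and 13.27% in overexpression tumours. Counting error alone would give 4.95% and 5.44% for Tgfb1, 7.17% and 8.10% for Smad3, and 2.82% and 2.62% for Tgfbr1. The controls of Tgfb1, Smad3 and Smad7 thus lay closer together than counting error alone would place them on average. With 3 tumours a group, these spreads are themselves loosely measured and their difference was not tested.

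**Figure D3:**
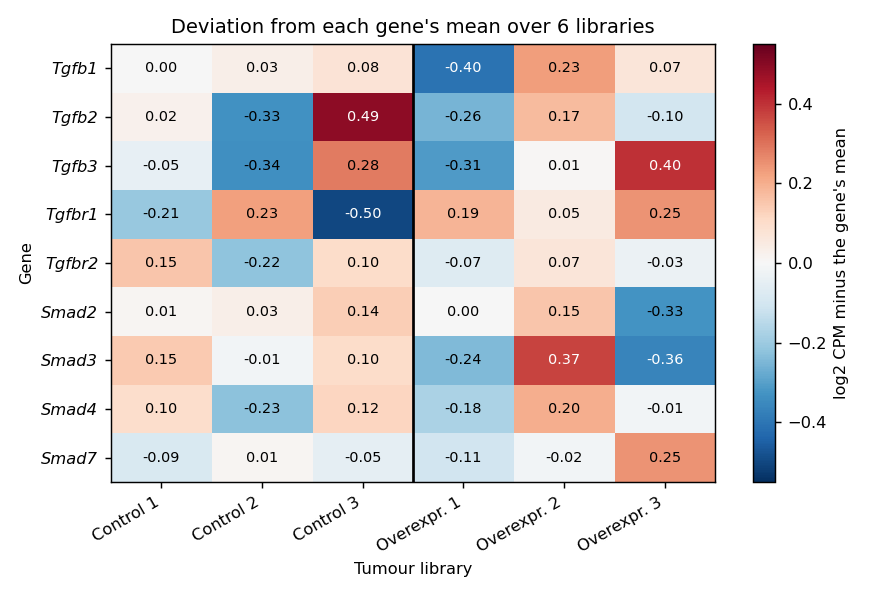
Log2 CPM of each gene (rows) in each tumour library (columns) minus that gene's mean over the 6 libraries, red for higher and blue for lower, with the value printed; the black line separates controls from overexpression tumours. Overexpression 1 is below the mean for 8 genes and overexpression 2 above it for 8, and Tgfbr1 is lowest, at -0.50, in control 3, where Tgfb2 is highest, at 0.49.

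Overexpression tumours 1 and 2 stood on opposite sides of the mean for most of the 9 genes. Overexpression 1 was among the 2 lowest libraries for 8 of 9 genes, Tgfbr1 being the exception, and 43.4% of all genes had it there. Overexpression 2 was among the 2 highest for 5 of 9 and among the 2 lowest for 0, against 35.6% and 31.0% of all genes. The median deviation of the 9 genes from their means, in log2 CPM, was -0.18 in overexpression 1 and 0.15 in overexpression 2, beside -0.03 and 0.01 over all genes. For the 9 genes it was 0.01, -0.01 and 0.10 in controls 1, 2 and 3, and -0.01 in overexpression 3. Control 2 was the lowest library for 4 genes (Tgfb2, Tgfb3, Tgfbr2 and Smad4), and control 3 was among the 2 highest for 6, against 11.4% and 33.7% of all genes. Overexpression 1 is also the library with the low scaling factor, and its part in these orders was not tested beyond the fit without it, in which Tgfb1 alone of the 9 genes changed sign.

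Of the 9 genes, 6 kept their sign under every scaling tried, and Tgfb3, Smad4 and Smad7 changed sign with library totals only. TMM, DESeq2 size factors and the upper quartile each gave 5 negative and 4 positive fold changes. With library totals only, 8 of 9 were negative, Tgfbr1 being the exception at 0.07, and so were 73.1% of all genes. That scaling moved the median of all genes from 0.01 to -0.21 and that of the 9 genes from -0.03 to -0.24.

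**Figure D4:**
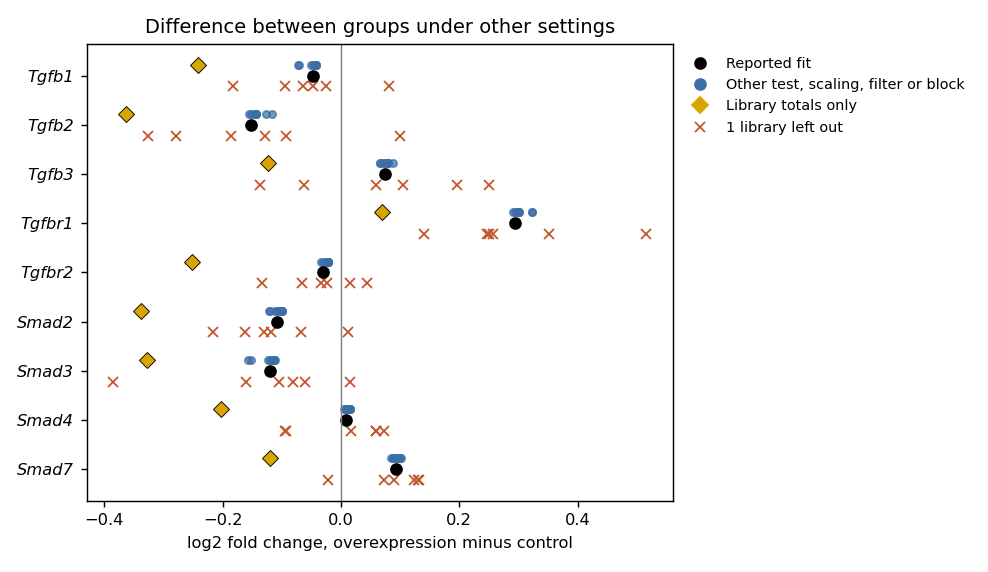
Log2 fold change of each gene (overexpression minus control, horizontal axis) in the reported fit (black), with another test, scaling, filter or block (blue), with library totals only (yellow diamonds) and with 1 library left out (crosses). Tgfbr1 is the gene that stays above 0 in all of these, from 0.07 to 0.52, and the other 8 genes have values on both sides of 0.

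A count estimate that is not a whole number arises where a quantifier shares reads out between genes. Tgfbr2 and Smad7 had whole estimates in all 6 libraries (to within 0.001), as had 22.2% of all genes tested. Smad3 had non-whole estimates in 5 libraries, Tgfb1 in 4, Tgfb2 and Smad2 in 3 each, and Tgfb3, Tgfbr1 and Smad4 in 1 each. Which other genes shared these reads was not analysed here, so the values of these 7 genes carry that uncertainty. The fractional part does not give how many reads were shared. Whole estimates do not show that Tgfbr2 and Smad7 are free of human reads, whose share was not tested.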

How the data were processed

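The authors deposited 1 table of estimated counts per mouse gene with no normalization, per its header, and its 6 columns were matched to the 6 tumours by title. Salmon appears in the name of that table, with no version in the sources used here. Per the submitters' processing notes the build was mm10, and the tools listed were edgeR, DESeq2, featureCounts 2.0.6, HISAT2 2.2.1 and Trimmomatic 0.39, with no role or order. The 9 genes, the lists and the tests were chosen with earlier results of these data known, and the text names all 9 genes whatever their values. Other pathway genes, cell markers and genes with a similar pattern were to be named by symbol, but 0 IDs matched the name table used here, and no mouse sequence or position was used.

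The estimates were rounded to whole counts, and R 4.3.3 was used throughout. Rows were filtered with filterByExpr of edgeR 4.0.16, which left genes holding 99.5% of counts, scaled by TMM, and compared by the robust quasi-likelihood F-test with group only, Benjamini-Hochberg adjusted over all 12637 genes at 0.05. Standard errors (SE) were the log2 fold change over the square root of F, and the prior count for log2 CPM was 2. In these libraries 3 counts stand for 0.632 to 0.852 CPM, a limit for counting error only. No pair of libraries of a group differed by sampling alone. Pairs of controls differed by 3.89 to 13.0 times the sampling variance, and pairs of overexpression tumours by 28.8 to 62.0 times. Overexpression 1 stood farthest from the rest, differing from each other library by 49.5 to 70.2 times. This check cannot tell repeat preparations of the same tumour from separate tumours. Alternatives were DESeq2 1.42.0, limma-voom (limma 3.58.1), other scalings and filters, robust fitting off, a replicate block and leaving out each library.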

Additional observations from a re-analysis of the deposited data

How the results depend on the processing

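None of the 9 genes passed the threshold in any of 16 alternatives, and none had an unadjusted p below 0.05 in any (edgeR, DESeq2 or limma-voom). Over the whole table edgeR called 2 genes. DESeq2 called 29 from all rows and 28 from the filtered ones, limma-voom 7, and edgeR 4 when scaled by totals, 14 without a count filter and 0 with the replicate block (414 at unadjusted p under 0.05). With 1 library left out it was 0 to 14: 0 without control replicate 1 or overexpression replicate 3 (327 and 947 at unadjusted p under 0.05), 1 without overexpression replicate 1 and 14 without overexpression replicate 2 (2659 at unadjusted p under 0.05). Some fold changes of the 9 genes changed sign. With library totals only the log2 values were -0.12 for Tgfb3, -0.20 for Smad4 and -0.12 for Smad7. With 1 library left out they ran from -0.18 to 0.081 for Tgfb1, -0.33 to 0.10 for Tgfb2, -0.14 to 0.25 for Tgfb3, 0.14 to 0.52 for Tgfbr1, -0.13 to 0.044 for Tgfbr2, -0.22 to 0.012 for Smad2, -0.38 to 0.016 for Smad3, -0.094 to 0.072 for Smad4 and -0.022 to 0.13 for Smad7; the cause was not tested. Same-numbered tumours are not said to be pairs, and their deviations from group means correlated at -0.09, -0.34 and -0.10 across genes; under the replicate block all 9 genes kept their direction and 0 passed. Alternatives for the other pathway genes were not run, since the table gives no gene names. For Tgfbr1 the counting error was 2.62% to 2.82%, beside a variation between tumours of 22.6% as fitted by edgeR. For Smad7 it was 8.76% to 8.99%, beside a fitted 17.6%. What set the width of the intervals, with 3 tumours a group, was not tested.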
